A study of Homo sapiens with 76 samples.

Results

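MDM2 and PPM1D, a pair of genes that p53 switches on and whose products hold p53 in check, were followed across 29 treatments of TK6 cells by TaqMan qPCR. They were found by name in the Cq table and are 2 of its 61 biomarker genes. TK6 is an established human lymphoblastoid B cell line that carries working p53. All samples were labelled 4 h, which for the chemicals was the exposure before harvest. There were 2 replicates per condition, which gave 76 samples: 58 treated samples of 29 treatments and 18 samples of 9 vehicle conditions. Of the treatments, 14 were DNA damage-inducing (DDI) and 15 were non-DDI, the non-DDI class holding ethanol at 2 doses. The panel genes had been picked in earlier microarray work for how well they told these agents apart, so a class difference follows from how its members were selected.

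The DDI treatments were the antimetabolites AraC (50 µM), hydroxyurea (0.5 mM), 5-FU (25 µg/ml) and MTX (100 µM), the topoisomerase poisons CPT (125 nM) and ETO (200 nM), cisplatin (80 µM), MMS (40 µg/ml), bleomycin (10 µg/ml), hydrogen peroxide (80 µM), gamma irradiation (4 Gy), cadmium chloride (50 µM), potassium chromate (100 µM) and sodium arsenite (20 µM). The non-DDI treatments were the microtubule agents docetaxel and paclitaxel (50 nM each), vinblastine (200 ng/ml) and colchicine (250 ng/ml), the histone deacetylase inhibitors TSA (20 ng/ml), HC toxin (20 ng/ml), apicidin (1 µg/ml) and oxamflatin (1 µM), the endoplasmic reticulum stressors tunicamycin (2.5 µg/ml) and thapsigargin (250 nM), the respiratory chain inhibitor antimycin A (100 µM), 2-DG (labelled 20 µM), heat shock (47 °C) and ethanol (2% and 4%). Doses came from earlier work, where they were picked for strong changes of ATF3, GADD45A and the p53 target CDKN1A at tolerable viability. Each was set against its own vehicle. DMSO served 10 treatments, H2O 7, Media 4 and EtOH 3, and MeOH, acetonitrile, NaOH, a separate MeOH for MMS and a separate H2O for NaAsO2 served 1 each. The replicates were exposures made on separate occasions, and all came from 1 cell line.

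p53 is kept scarce in unstressed cells because MDM2, an E3 ubiquitin ligase, binds its transactivation domain and sends it to the proteasome. DNA damage kinases loosen that grip by phosphorylating both proteins, and the p53 that accumulates then transcribes MDM2, which closes a negative feedback loop. PPM1D encodes Wip1, a PP2C family phosphatase that removes damage-induced phosphates from p53, ATM, the checkpoint kinases, histone H2AX and MDM2 itself. It is also a p53 target, so it forms another negative loop that brings the checkpoint to an end.

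MDM2 lies on chromosome 12 (12:68808172-68850686) and PPM1D on chromosome 17 (17:60600193-60666280) in GRCh38.p14, both on the plus strand. The 250 bases before a RefSeq transcript start are shown for each gene, since both genes moved with the p53 targets below. MDM2 has 4 such windows, and the one shown precedes its internal start (P2), at chr12:68808767-68809016. For PPM1D the window is chr17:60599943-60600192. Capitals mark 20-base matches to the p53 response element with at most 3 mismatches in MDM2, and the cAMP response element TGACGTCA in PPM1D.
MDM2: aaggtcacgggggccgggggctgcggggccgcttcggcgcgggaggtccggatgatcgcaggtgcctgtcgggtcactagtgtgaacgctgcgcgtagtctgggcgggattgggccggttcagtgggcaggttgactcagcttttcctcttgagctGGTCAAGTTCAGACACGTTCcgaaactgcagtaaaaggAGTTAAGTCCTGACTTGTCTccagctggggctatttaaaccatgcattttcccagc
PPM1D: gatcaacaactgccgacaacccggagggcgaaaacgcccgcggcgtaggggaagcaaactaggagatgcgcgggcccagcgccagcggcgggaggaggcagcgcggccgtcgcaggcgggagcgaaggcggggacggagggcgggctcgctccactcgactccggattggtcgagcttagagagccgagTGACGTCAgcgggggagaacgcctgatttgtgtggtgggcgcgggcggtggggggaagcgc

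The MDM2 window held 2 p53 element matches, at 94 to 75 bases (2 mismatches) and at 56 to 37 bases (3 mismatches) before the start. Both strands are covered, because the consensus is its own reverse complement. At most 3 mismatches occurred in 4.36% of all 35116 promoter windows of the same length, and at most 2 in 0.561%. The MDM2 windows before its upstream starts held no such match, and their closest stretch had 5 mismatches. The remaining MDM2 window overlaps the one shown and held the same matches. The closest stretch in the PPM1D window had 4 mismatches. TGACGTCA was found in 1.65% of the windows, and only these 2 motifs were searched. These are matches of letters only, and neither the bases after the start nor distant sites were searched.

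Both transcripts were well within the range of the assay. The Cq, the cycle at which fluorescence crosses the threshold, ran between 23.32 and 27.58 for MDM2 (median 25.8) and between 24.1 and 27.69 for PPM1D (median 26.4) over 76 samples. Levels are given below as minus delta Cq, the mean Cq of the reference genes HPRT and GUSB minus the Cq of the gene, so that 1 unit is a doubling, and a log2 fold change is a difference of such levels. Within a condition the replicates had an SD of 0.21 for MDM2 and 0.22 for PPM1D, near the panel median of 0.20. The replicate Cq values of HPRT and GUSB spread little over all samples, with SDs of 0.30 and 0.33.

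A few samples stood apart. The EtOH and acetonitrile vehicles shared 50 of 61 Cq values to the last digit in each replicate number, but not those of MDM2 or PPM1D. Replicate 1 of the MeOH vehicle shared 19 values with that of EtOH and 19 with that of acetonitrile, again not those of MDM2 or PPM1D. Replicate 1 of cisplatin and of colchicine shared 12, also without the members. Replicate 2 of the DMSO and Media vehicles shared 11 values, among them both MDM2 and PPM1D. The vehicles are thus not fully separate measurements, which bears on the panel shares given against the 8 other vehicles. The H2O vehicle had lower levels of many genes than the 8 other vehicles, as given for both members further on. TNFRSF17, the only B lineage marker of the panel, was detected in every sample at Cq 26.91 to 30.12.

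MDM2 rose in 11 of 14 DDI treatments and PPM1D in 12 of 14, and the 11 that raised MDM2 all raised PPM1D as well. For MDM2 the count was 13 with HPRT alone or with the replicate number as a block within each vehicle set, and 12 with that block over all samples or with each vehicle set fitted alone. Among non-DDI treatments each gene rose in 1 of 15, MDM2 with 2-DG and PPM1D with 4% ethanol. These calls are at an adjusted p under 0.05 by limma with Benjamini-Hochberg adjustment over the 61 genes of a treatment. By the same rule 46.5% of the 854 gene tests in DDI treatments and 14.2% of the 915 in non-DDI treatments were higher. Neither gene was lower in any treatment by limma, where 14.9% of the tests in DDI and 12.1% in non-DDI treatments were lower. At an unadjusted p under 0.05, MDM2 was lower in 1 treatment (apicidin) and PPM1D in 0. In DDI treatments both replicates were above the vehicle replicate of the same number for MDM2 in 13 of 14 and for PPM1D in 13 of 14. In non-DDI treatments both were above it in 1 of 15 and below it in 5 for MDM2, and above in 2 and below in 8 for PPM1D. These counts pair samples by replicate number, which no source settles, and a like count over the 61 genes was not made.

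The share of the panel that rose gives the setting of each call. It was 67.2% with hydroxyurea, 65.6% with AraC, 57.4% with CPT and with sodium arsenite, 55.7% with hydrogen peroxide, 54.1% with 5-FU, 52.5% with gamma irradiation, 50.8% with bleomycin, 49.2% with ETO, 42.6% with MMS, 34.4% with cisplatin and 23% with cadmium chloride. Among the non-DDI treatments that raised a member, it was 36.1% with 2-DG and 18% with 4% ethanol. PPM1D, called higher in 12 DDI treatments, ranked 7 among the 61 genes by that count, and MDM2, with 11, ranked 13.

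**Figure D1:**
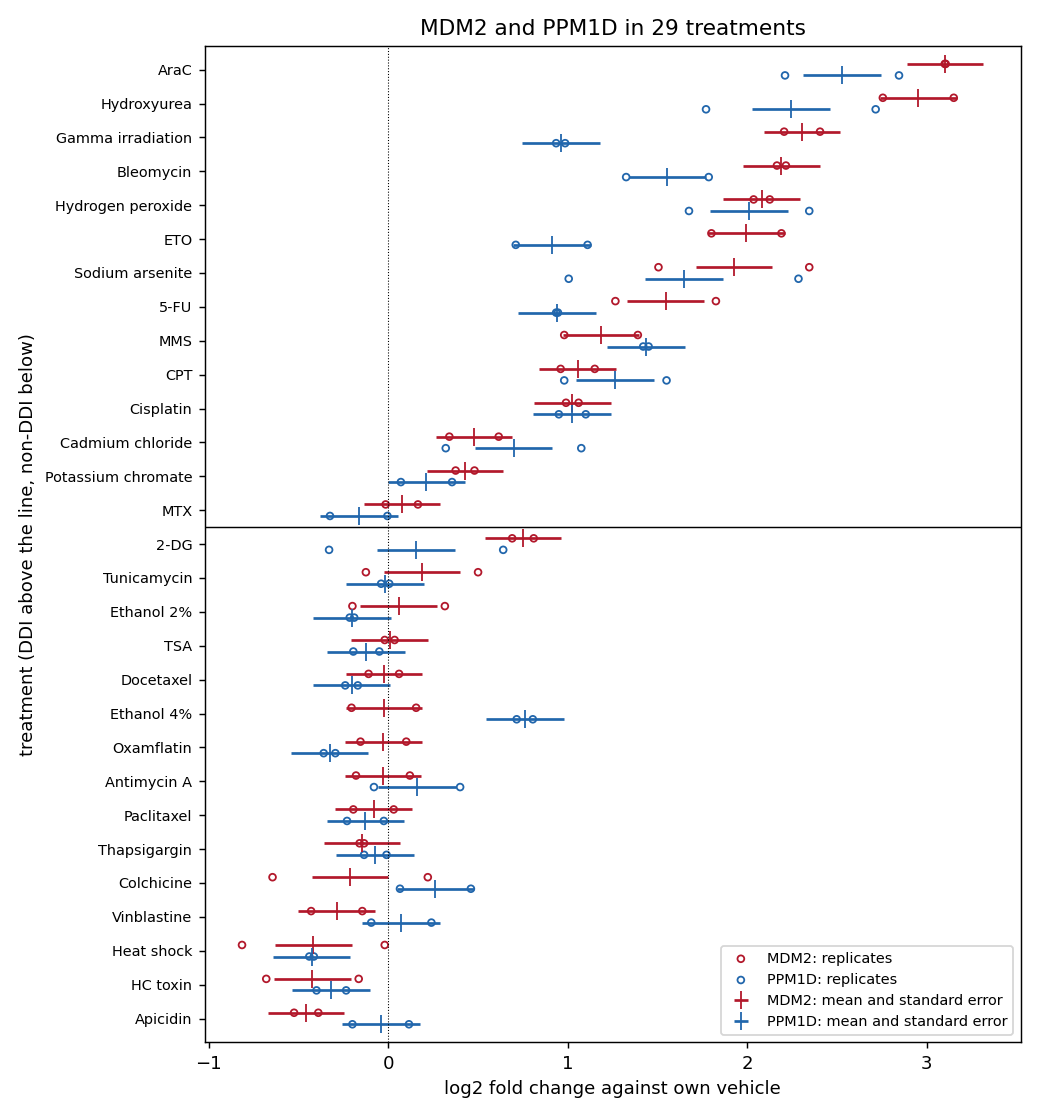
Log2 fold change of MDM2 (red) and PPM1D (blue) against the vehicle of each treatment (horizontal axis), with the mean and its standard error as bars and the 2 replicates as open circles. DDI treatments stand above the line and non-DDI treatments below it, and AraC leads for both genes at 3.10 for MDM2 and 2.53 for PPM1D.

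The largest log2 fold changes of both genes came with AraC and hydroxyurea, both set against the H2O vehicle. Set against the other vehicles instead, AraC gave 2.27 and hydroxyurea 2.12 for MDM2. Both values were below the MDM2 rise with gamma irradiation against Media, given further on. For PPM1D they gave 2.18 and 1.89. Whether stalled replication forks account for the size of these responses was not tested. AraC, a cytidine analogue that ends DNA chains, brought the MDM2 level to -0.04 and -0.17, against -3.14 and -3.27 in H2O vehicle. The groups lay about 3 units apart, and the log2 fold change was 3.10 (SE 0.21, 8.59-fold, adjusted p = 7.30e-17 by limma). PPM1D stood at -0.80 and -0.82 with AraC, against -3.01 and -3.66 in H2O vehicle. Its rise of 2.53 (SE 0.22, 5.77-fold, adjusted p = 5.37e-14) was the highest of the 29, although the vehicle replicates themselves were 0.65 apart.

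Hydroxyurea blocks ribonucleotide reductase and so starves replication of deoxynucleotides. MDM2 was at 0.01 and -0.52 with hydroxyurea, against the same H2O vehicle values, a log2 fold change of 2.95 (SE 0.21, adjusted p = 5.25e-16). PPM1D was at -1.24 and -0.95 with hydroxyurea, which is 2.24 above H2O vehicle (SE 0.22, adjusted p = 1.88e-12). For both genes every treated sample lay above every vehicle sample. 5-FU, a pyrimidine analogue that inhibits thymidylate synthase and enters RNA, gave MDM2 levels of -0.51 and -0.99, against -2.33 and -2.25 in DMSO, and a rise of 1.55 (SE 0.21, adjusted p = 9.09e-08). PPM1D reached -1.80 and -2.04 with 5-FU, against -2.73 and -2.98 in DMSO, and rose by 0.94 (SE 0.22, adjusted p = 0.000316).

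MTX, the folate antagonist methotrexate, was the antimetabolite with which neither gene passed the test. MDM2 was at -2.16 and -2.59 with MTX, against -2.32 and -2.58 in NaOH, and the groups overlapped (log2 fold change 0.08, 95% interval -0.35 to 0.50, adjusted p = 0.974). PPM1D was at -3.09 and -2.76 with MTX, against -2.76 and -2.76 in NaOH (log2 fold change -0.17, 95% interval -0.60 to 0.27, adjusted p = 0.948). With MTX 1.64% of the panel was higher and 4.92% lower, and 0 of 19 other p53 targets passed the test.

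Agents that break DNA strands raised both genes. Gamma irradiation took the MDM2 level to 0.09 and 0.27, the highest of any treated condition, against -2.32 and -1.94 in Media (log2 fold change 2.31, SE 0.21, adjusted p = 2.27e-12). PPM1D stood at -1.91 and -1.73 after gamma irradiation, against -2.89 and -2.67 in Media, a rise of 0.96 (SE 0.22, adjusted p = 0.000152). Bleomycin, a radiomimetic glycopeptide, gave MDM2 levels of -0.98 and -1.06, against -3.14 and -3.27 in H2O (log2 fold change 2.19, adjusted p = 6.03e-12). Its PPM1D levels of -1.69 and -1.88 were 1.56 above H2O vehicle (adjusted p = 3.31e-08). Hydrogen peroxide, which oxidises bases and nicks strands, raised the genes about equally. MDM2 was at -1.11 and -1.15 with hydrogen peroxide, 2.08 above H2O vehicle (adjusted p = 1.91e-11), and PPM1D at -1.34 and -1.32, which is 2.01 above it (adjusted p = 7.63e-11).

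Both topoisomerase poisons raised both genes, and whether they differed from each other was not tested. ETO, etoposide, traps topoisomerase II and lifted MDM2 to -0.14 and -0.45, against -2.33 and -2.25 in DMSO (log2 fold change 2.00, SE 0.21, adjusted p = 1.56e-10). PPM1D was at -2.02 and -1.87 with ETO, against -2.73 and -2.98 in DMSO, a rise of 0.91 (SE 0.22, adjusted p = 0.000334). CPT, camptothecin, traps topoisomerase I and gave MDM2 levels of -1.18 and -1.29, a rise of 1.06 over DMSO (SE 0.21, adjusted p = 2.76e-05). PPM1D was at -1.75 and -1.43 with CPT, a rise of 1.27 over DMSO (SE 0.22, adjusted p = 2.01e-06). Each treated sample of both agents lay above both DMSO samples.

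The agents that modify bases also raised both genes. Cisplatin, which crosslinks guanines, gave MDM2 levels of -1.27 and -1.26 and PPM1D levels of -1.78 and -1.88, and each gene was 1.03 above DMSO (adjusted p = 6.97e-05 for MDM2 and 8.69e-05 for PPM1D). MMS, a methylating agent, gave MDM2 levels of -0.42 and -1.20, against -1.81 and -2.18 in its MeOH vehicle, a rise of 1.19 (SE 0.21, adjusted p = 5.56e-06). PPM1D was at -1.40 and -1.39 with MMS, against -2.85 and -2.81 in that vehicle, a rise of 1.44 (SE 0.22, adjusted p = 2.56e-07). The MMS treatment had 2 samples on each side, and fitted on these 4 alone the MDM2 call was lost (adjusted p = 0.0589).

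Among the metal salts the responses ranged widely. Sodium arsenite, which binds thiols and provokes oxidative stress, gave MDM2 levels of -0.52 and -1.11, against -2.87 and -2.62 in its H2O vehicle, a rise of 1.93 (SE 0.21, adjusted p = 3.37e-10). PPM1D was at -1.55 and -1.81 with sodium arsenite, against -3.84 and -2.82 in that vehicle, a rise of 1.65 (SE 0.22, adjusted p = 1.96e-08). The vehicle replicates of PPM1D were 1.02 apart here, and the log2 fold changes of the replicates, 2.29 and 1.01, differed more than in any other DDI treatment. Cadmium chloride gave MDM2 levels of -2.80 and -2.66, which is 0.48 above H2O and not past the threshold (adjusted p = 0.0545), although it passed with the replicate block by vehicle set (adjusted p = 0.0212) and over all samples (adjusted p = 0.026). PPM1D was at -2.69 and -2.59 with cadmium chloride, a rise of 0.70 (SE 0.22, adjusted p = 0.00594). That call was lost with GUSB alone as the reference (0.46, adjusted p = 0.0711), without treated replicate 2 (0.65, adjusted p = 0.0514) and without vehicle replicate 2 (0.37, adjusted p = 0.253). Potassium chromate gave 0.43 for MDM2 (95% interval 0.00 to 0.86, adjusted p = 0.092) and 0.21 for PPM1D (95% interval -0.23 to 0.65, adjusted p = 0.404), and neither passed. MDM2 with potassium chromate passed with the replicate block by vehicle set (adjusted p = 0.0419) and with HPRT alone (0.62, adjusted p = 0.00481).

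**Figure D2:**
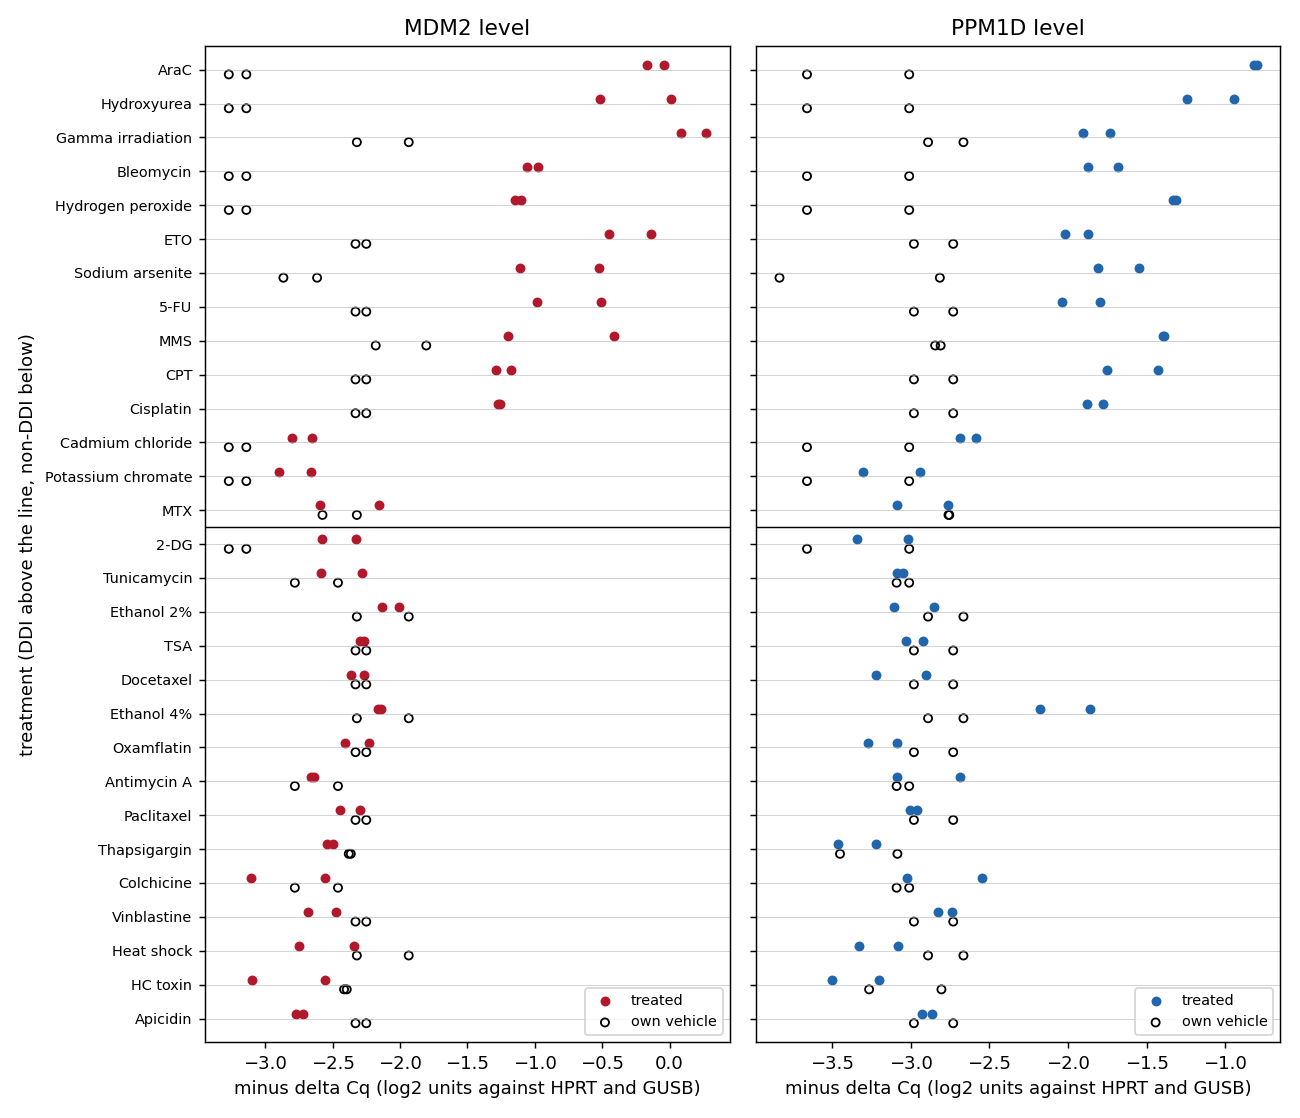
Minus delta Cq levels (horizontal axis, log2 units against HPRT and GUSB) of MDM2 on the left and PPM1D on the right, filled circles for the 2 treated samples and open circles for the 2 samples of the vehicle. The H2O vehicle of MDM2 sits at -3.14 and -3.27, left of all other vehicles, and gamma irradiation has the highest treated MDM2 level.

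In the non-DDI class MDM2 log2 fold changes ran between -0.46 (apicidin) and 0.75 (2-DG), with a median of -0.03. Apicidin was not past the threshold (adjusted p = 0.0765) but was with the replicate block by vehicle set (adjusted p = 0.0331). 2-DG, a glucose analogue that blocks glycolysis, gave MDM2 levels of -2.33 and -2.58, against -3.14 and -3.27 in H2O (SE 0.21, adjusted p = 0.0031). These treated levels lay inside the range of the 8 other vehicles, and against those vehicles the difference was -0.081 (adjusted p = 0.874). It was also not past the threshold with GUSB alone as the reference (0.58, adjusted p = 0.0629) or with the panel median (0.33, adjusted p = 0.228). PPM1D with 2-DG was at -3.34 and -3.02, overlapping its H2O vehicle (log2 fold change 0.16, 95% interval -0.28 to 0.59).

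PPM1D ran between -0.43 (heat shock) and 0.76 (4% ethanol) in the non-DDI class, with a median of -0.07. Ethanol at 4% brought PPM1D to -2.18 and -1.86, against -2.89 and -2.67 in Media (SE 0.22, adjusted p = 0.0076). Ethanol at 2% gave -3.11 and -2.86, on both sides of the Media values (log2 fold change -0.20, adjusted p = 0.558). The doses differed by 0.96 for PPM1D (4% minus 2%, SE 0.22, adjusted p = 0.000682, where 11.5% of the 61 genes were higher), and this held without each of the 4 ethanol samples in turn (0.81 to 1.12). The call of 4% ethanol against Media was lost without treated replicate 2 (0.60, adjusted p = 0.092) and without vehicle replicate 1 (0.65, adjusted p = 0.0663). MDM2 was at -2.17 and -2.14 with 4% ethanol and at -2.01 and -2.14 with 2% ethanol, a difference of -0.08 (95% interval -0.51 to 0.35, adjusted p = 0.791).

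Docetaxel and paclitaxel, taxanes that share a ring system and stabilise microtubules, were given at the same 50 nM. MDM2 was at -2.27 and -2.36 with docetaxel and at -2.30 and -2.45 with paclitaxel, a difference of 0.06 (95% interval -0.37 to 0.49, adjusted p = 0.991). PPM1D was at -2.90 and -3.22 with docetaxel and at -2.96 and -3.01 with paclitaxel, a difference of -0.08 (95% interval -0.52 to 0.36, adjusted p = 0.991). No other pair of related compounds was compared, 0% of the 61 genes were called by limma, and 0 had an unadjusted p under 0.05. The intervals leave room for a difference of about 0.5 on the log2 scale.

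In order of log2 fold change, neighbours mostly did not differ beyond the standard error of a single value. For MDM2, 6 of 28 gaps exceeded it, the widest of 0.65 lying between hydroxyurea at 2.95 and gamma irradiation at 2.31. For PPM1D, 5 of 28 did, the widest of 0.44 between cadmium chloride at 0.70 and colchicine at 0.26. The order depended on the vehicle. By treated level, gamma irradiation stood above AraC for MDM2, while its vehicle, Media, at -2.32 and -1.94, stood above H2O, at -3.14 and -3.27.

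As classes, DDI treatments averaged 1.60 ± 0.93 for MDM2 and non-DDI treatments -0.08 ± 0.30 (SD of log2 fold changes, n = 14 and 15). The difference was 1.67 (SE 0.25, 95% interval 1.17 to 2.17, adjusted p = 2.07e-06 by limma over the treatment means, where 57.4% of the 61 genes were higher). PPM1D averaged 1.23 ± 0.74 in DDI treatments and -0.03 ± 0.29 in non-DDI treatments, a difference of 1.26 (SE 0.21, 95% interval 0.83 to 1.69, adjusted p = 8.57e-06). By size the MDM2 difference ranked 5 among the 61 genes and that of PPM1D ranked 9. For each gene 11 of 14 DDI treatments lay above the highest non-DDI treatment, 2-DG for MDM2 (0.75) and 4% ethanol for PPM1D (0.76). A like count over the 61 genes was not made. Within the 10 DMSO treatments alone, the difference was 1.55 for MDM2 (adjusted p = 0.000189) and 1.16 for PPM1D (adjusted p = 7.21e-05). The class tests take treatments as independent although many share vehicle samples, so their SEs, intervals and p-values leave that out. H2O vehicle served 6 DDI treatments and 1 non-DDI treatment. With these set against the 8 other vehicles, the class difference was 1.37 for MDM2 and 1.14 for PPM1D.

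The H2O vehicle, to which 7 treatments were compared, had a lower MDM2 level than the other vehicles. MDM2 was at -3.14 and -3.27 in H2O, against -2.87 to -1.81 in the 16 samples of the 8 other vehicles, a difference of -0.83 (SE 0.16, adjusted p = 1.65e-05, where 55.7% of the 61 genes were lower). With the panel median as the reference it was -0.23 and not past the threshold (adjusted p = 0.207). PPM1D was at -3.01 and -3.66 in H2O, against -3.84 to -2.67 in the others, a difference of -0.35 (adjusted p = 0.053) that turned to 0.25 with the panel median. Without replicate 2 of H2O the PPM1D difference was -0.023 (adjusted p = 0.929), and without replicate 1 it was -0.67 (adjusted p = 0.00666). Set against the 8 other vehicles, AraC gave 2.27 for MDM2 and 2.18 for PPM1D, hydroxyurea 2.12 and 1.89, bleomycin 1.36 and 1.21, and hydrogen peroxide 1.25 and 1.66, and all of these stayed past the threshold. For MDM2, cadmium chloride was at -0.35 against them and so lower (adjusted p = 0.0406), while PPM1D remained higher at 0.35 (adjusted p = 0.045). Potassium chromate was at -0.40 for MDM2 (adjusted p = 0.0791) and at -0.14 for PPM1D (adjusted p = 0.693), neither past the threshold.

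The genes were coupled within the DDI class. Over its 14 treatments the log2 fold changes of MDM2 and PPM1D had a Pearson r of 0.85 and a Spearman rho of 0.77, and without AraC and MTX, the farthest from the MDM2 median, r was 0.74. These are descriptions, since treatments share vehicle samples and the genes of a sample share its reference genes. With MDM2 set against HPRT and PPM1D against GUSB, so that no reference was shared, r was 0.80, and the other way round it was 0.75. With MDM2 taken from one replicate number and PPM1D from the other, so that no sample was shared, r was 0.74 and 0.77. Among the 1830 gene pairs of the panel, 88 had an r as high or higher over the DDI treatments, and the median pair had 0.29.

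The coupling was also computed by vehicle set, a choice made after the data were seen. Within the 6 DDI treatments in H2O r was 0.97 and rho 0.94, and r was 0.83 without cadmium chloride and potassium chromate. Within the 8 in other vehicles r was 0.59 and rho 0.10. Those 8 had r = 0.02 once gamma irradiation and MTX were left out, so that r rested on those 2 treatments. The 4 DDI treatments in DMSO, too few for a correlation, ran nearly in opposite orders. MDM2 was highest with ETO (2.00), then 5-FU (1.55), CPT (1.06) and cisplatin (1.03), while PPM1D was highest with CPT (1.27), then cisplatin (1.03), 5-FU (0.94) and ETO (0.91). In the 15 non-DDI treatments r was 0.27 and rho 0.17, and without 2-DG and 4% ethanol r was 0.16. The least-squares slope of PPM1D on MDM2 over the DDI treatments was 0.68, a value that scatter also lowers. The SD over those treatments was 0.93 for MDM2 and 0.74 for PPM1D.

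**Figure D3:**
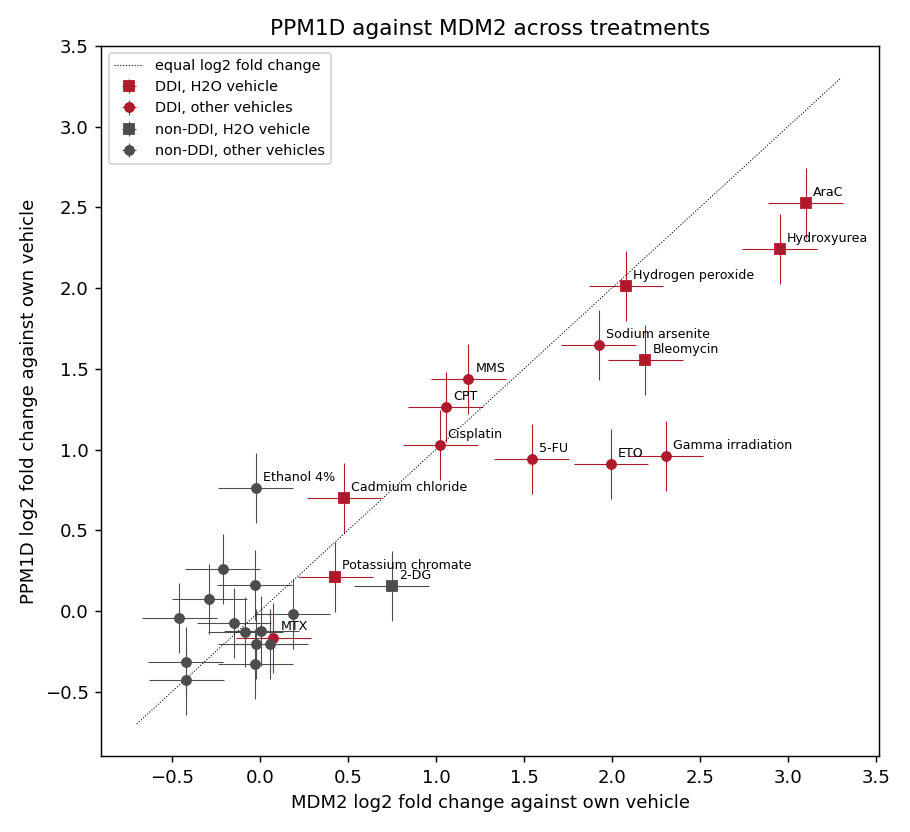
Log2 fold change of PPM1D (vertical axis) against that of MDM2 (horizontal axis) for 29 treatments, with standard errors as bars, red for DDI, grey for non-DDI, squares for the H2O vehicle and the dotted line for equal change. Gamma irradiation and ETO lie farthest to the right of the line, by 1.35 and 1.09, followed by hydroxyurea (0.71), bleomycin (0.64), 5-FU (0.61), 2-DG (0.60) and AraC (0.58).

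The balance between the genes was tested directly as MDM2 minus PPM1D, a difference from which the reference genes cancel. It passed the threshold in 4 of 29 treatments, and in 8 with the replicate block, which adds bleomycin, 5-FU, 2-DG and AraC. Of those added, bleomycin, 2-DG and AraC were set against the H2O vehicle. In that vehicle the difference was itself lower than in the 8 other vehicles (-0.48, adjusted p = 0.048 by limma). Against the 8 other vehicles bleomycin was at 0.15, 2-DG at 0.11 and AraC at 0.09, none past the threshold. Cadmium chloride was at -0.70 against them and so favoured PPM1D (adjusted p = 0.00276). Gamma irradiation favoured MDM2 by 1.35 (SE 0.29, 95% interval 0.77 to 1.92, adjusted p = 9.00e-05 by limma), with 1.42 and 1.27 in its replicates. ETO favoured MDM2 by 1.09 (SE 0.29, 95% interval 0.51 to 1.66, adjusted p = 0.00157), with 1.48 and 0.69. Both held without each treated and each vehicle replicate in turn, and both passed when the p-values of MDM2 were adjusted over the 29 treatments (0.000826 for gamma irradiation and 0.00684 for ETO).

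Hydroxyurea favoured MDM2 by 0.71 (adjusted p = 0.0227), with 1.38 in replicate 1 and 0.04 in replicate 2, and ethanol at 4% favoured PPM1D (-0.79, adjusted p = 0.0147), with -0.56 and -1.01. Neither passed when adjusted over the 29 treatments (0.123 for hydroxyurea and 0.0852 for 4% ethanol). Hydroxyurea was at 0.30 without treated replicate 1 (adjusted p = 0.418), at 0.45 without vehicle replicate 1 (adjusted p = 0.239) and at 0.23 against the 8 other vehicles (adjusted p = 0.309). Ethanol at 4% was at -0.64 without treated replicate 2 (adjusted p = 0.124) and at -0.71 without vehicle replicate 2 (adjusted p = 0.0823). In this fit all 60 other genes are set against PPM1D, and 11.3% of the 1740 tests were higher and 30.9% lower, so a call tells MDM2 from PPM1D and not from the panel. By treatment, 15% of the 60 genes were higher than PPM1D with gamma irradiation, 10% with ETO and 6.67% with hydroxyurea, and 63.3% were lower with 4% ethanol. Cisplatin stood at 0.00 (95% interval -0.58 to 0.58), hydrogen peroxide at 0.07, and CPT at -0.21 (95% interval -0.79 to 0.37), with the adjusted p of these above the threshold. The doses of ethanol differed in this balance by -1.05 (4% minus 2%, SE 0.29, adjusted p = 0.00113, where 78.3% of the 60 genes were lower).

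**Figure D4:**
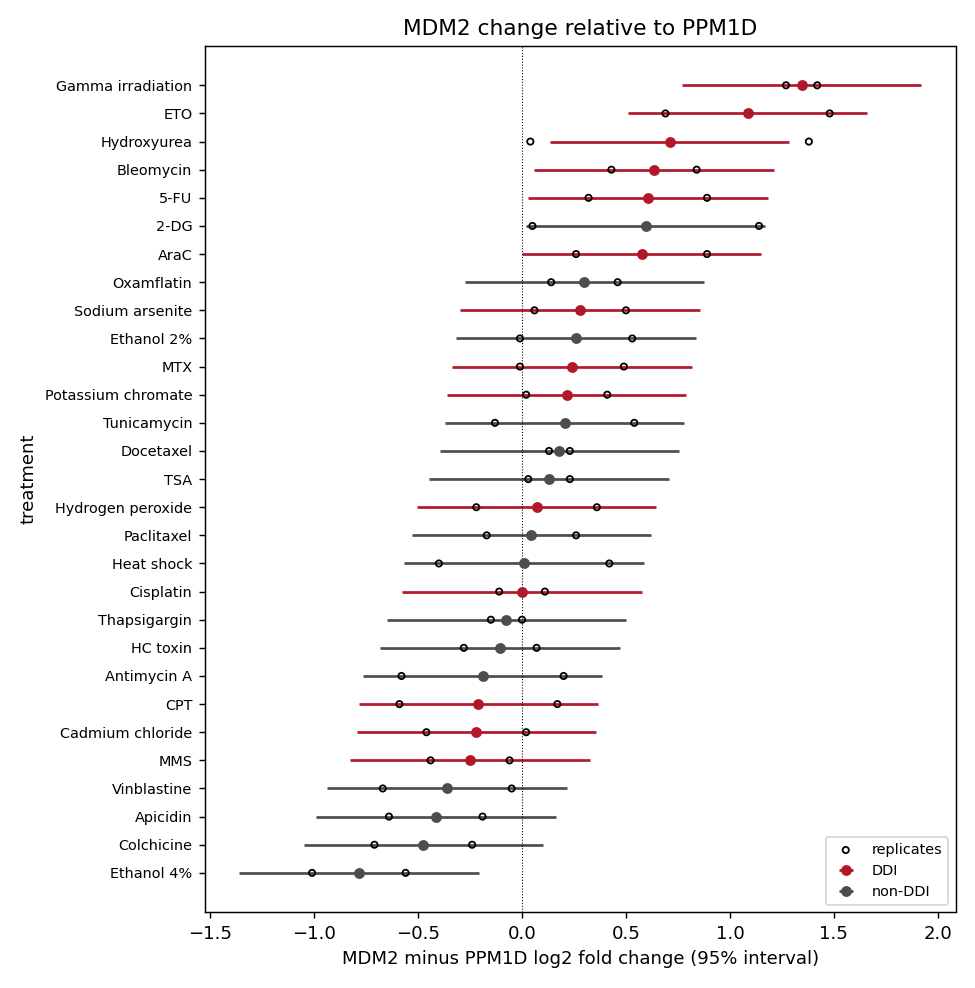
MDM2 minus PPM1D log2 fold change (horizontal axis) of each treatment in order of size, with 95% intervals, red for DDI and grey for non-DDI, and open circles for the 2 replicates. Gamma irradiation at 1.35 and ETO at 1.09 lead, and 4% ethanol at -0.79 is last.

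Over all 29 treatments, the panel genes most like MDM2 were RRM2B, the p53-induced ribonucleotide reductase subunit (r = 0.92), PPM1D (r = 0.91), DCP1B, an mRNA decapping cofactor (r = 0.91), BLOC1S2 (r = 0.91) and FBXO22, an F-box protein (r = 0.90). Least like it were ID2 (r = -0.62) and B3GNT2 (r = -0.60). Most like PPM1D were PRKAB1, a subunit of AMP-activated kinase (r = 0.96), MDM2 (r = 0.91), BLOC1S2 (r = 0.90), AEN, a p53-induced nuclease (r = 0.89) and PHLDA3, an inhibitor of Akt (r = 0.88). Least like PPM1D were RAPGEF2 (r = -0.63) and ITPR1 (r = -0.61). Within the 14 DDI treatments RRM2B stayed nearest to MDM2 (r = 0.92) and PRKAB1 nearest to PPM1D (r = 0.94), and PPM1D ranked 2 of 60 for MDM2 while MDM2 ranked 5 of 60 for PPM1D. CDKN1A, the cyclin-dependent kinase inhibitor p21, had r = 0.66 with MDM2 and 0.69 with PPM1D there.

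**Figure D5:**
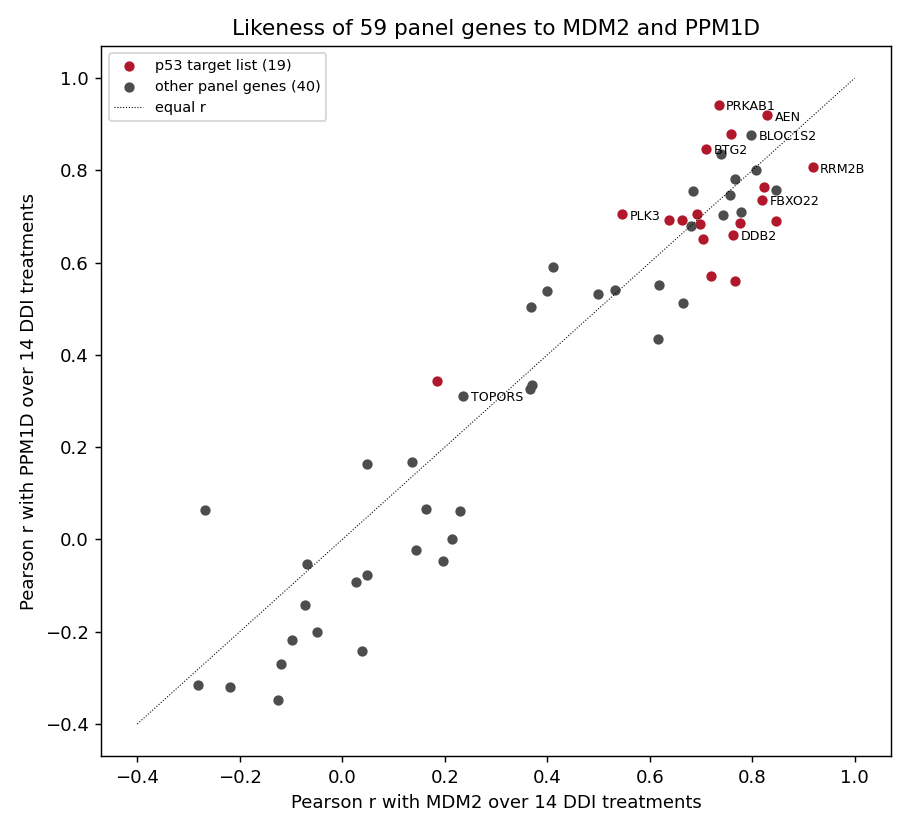
Pearson r of each of the 59 other panel genes with MDM2 (horizontal axis) and with PPM1D (vertical axis) over the 14 DDI treatments, red for the 19 other p53 targets and grey for the other 40. Points near the dotted line are as like the one gene as the other, RRM2B (0.92 and 0.81) lies to the MDM2 side and PRKAB1 (0.74 and 0.94) to the PPM1D side.

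The 19 other p53 targets of the panel were higher in 205 of 266 tests (77.1%) and lower in 5 (1.88%) in DDI treatments. Over all 61 genes these shares were 46.5% and 14.9%. In non-DDI treatments 32 of 285 tests were higher (11.2%) and 31 lower (10.9%), near the 14.2% and 12.1% of all 61 genes. The panel was chosen for class separation, so its targets are no independent evidence of that direction. In AraC, hydroxyurea, 5-FU and gamma irradiation all 19 were higher, where 65.6%, 67.2%, 54.1% and 52.5% of the 61 genes were. The median of their log2 fold changes was 2.47 with AraC, 2.37 with hydroxyurea, 1.05 with 5-FU and 0.93 with gamma irradiation, beside 3.10, 2.95, 1.55 and 2.31 for MDM2 and 2.53, 2.24, 0.94 and 0.96 for PPM1D. Over the DDI treatments MDM2 was above the median of the 19 in 12 of 14 and PPM1D in 8 of 14. MDM2 was below it with CPT (1.06, against a median of 1.37) and with potassium chromate (0.43, against 0.62). With 2-DG, where MDM2 was called and PPM1D was not, 12 of 19 were higher and 2 lower, and CDKN1A was lower (-0.53, adjusted p = 0.0488). With potassium chromate, where neither member passed, 13 of 19 were higher and 2 lower, and CDKN1A was lower as well (-0.74, adjusted p = 0.00641). Of all 61 genes, 36.1% were higher with 2-DG and 39.3% with potassium chromate. Both agents were set against the H2O vehicle, in which 55.7% of the 61 genes were lower than in the 8 other vehicles. How far that vehicle shaped these counts was not tested. With 4% ethanol 2 of 19 were higher and 2 lower, where 18% of the 61 genes were higher and 14.8% lower.

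Other panel genes whose products act on p53 or MDM2 behaved unevenly. PLK3, a kinase that phosphorylates p53, rose in 13 of 14 DDI treatments, and rose in 3 and fell in 3 of 15 non-DDI treatments. FBXO22, part of a ubiquitin ligase complex that targets methylated p53, rose in 11 of 14 DDI treatments, and rose in 1 and fell in 1 non-DDI treatment. RPS27L, a ribosomal protein that binds MDM2, rose in 8 DDI treatments, and rose in 0 and fell in 2 non-DDI treatments. TOPORS, a ubiquitin and SUMO ligase for p53, rose in 3 and fell in 3 of the DDI treatments, and fell in 7 and rose in 1 of the non-DDI treatments. Together these 4 genes were higher in 62.5% and lower in 5.36% of DDI tests, against 46.5% and 14.9% for the panel. Of non-DDI tests 8.33% were higher and 21.7% lower, against 14.2% and 12.1%.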

How the data were processed

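The deposited file used here held Cq values, 1 per gene and sample, which the authors measured with TaqMan assays on array plates; per the labels cDNA came from total RNA. The authors' own fold changes, a second table, were not used. The level was the mean Cq of HPRT and GUSB minus the Cq of the gene. limma 3.58.1 in R 4.3.3 was fitted on 76 samples with 38 conditions (38 residual degrees of freedom, prior degrees 2.68). Each treatment had its own Benjamini-Hochberg adjustment, made over the 61 genes. For the classes, limma took 1 mean log2 fold change per treatment (29), and MDM2 relative to PPM1D with PPM1D as the reference. The tests were tested on simulated data with noise drawn independently for each value. Errors shared through reference genes or replicate numbers were not simulated, nor, for the classes, shared vehicles. Treatments and classes came from the sample labels, and the solvent of each treatment from the study's methods, which also say that doses were set with viability and stress response genes. For MDM2 and PPM1D 2 assays each had been tried, and which is in the table is not given in the sources used here. The members and gene lists were chosen with earlier results of these data known. Besides the members, the genes named were the reference genes, the 5 most and 2 least correlated with each member over the 29 treatments, CDKN1A and list members. With 2 replicates per condition, precision rests on the pooled spread. Alternatives changed the reference, the vehicle, the replicates, the pairing, the filter on late Cq and the adjustment. Leaving out MTX, the H2O treatments, 2-DG and 4% ethanol, the swapped replicates and the adjustment over 29 treatments were added after seeing the data. Promoter windows were taken from RefSeq for GRCh38.p14, with 2 of 2 members matched.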

Additional observations from a re-analysis of the deposited data

Results flagged for a closer look

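The PPM1D response to ethanol differed between doses by 0.96 on the log2 scale (4% minus 2%), by a test of the difference itself (limma, SE 0.22, adjusted p = 0.000682). Both replicates of 4% ethanol were above their Media replicates, by 0.72 and 0.81, and both of 2% ethanol below them, by -0.22 and -0.19. MDM2 differed between the same samples by -0.08 (adjusted p = 0.791).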

How the results depend on the processing

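Over the 58 values of a gene in a treatment, 812 alternatives were run and 786 kept the side of the threshold, with 9 weaker, 14 stronger and 3 reversed. In 58 of the 786 the sign turned with neither value past the threshold. The reversed ones were MDM2 with 2-DG (-0.081) and with cadmium chloride (-0.35) against the 8 other vehicles, and PPM1D with potassium chromate against the panel median (-0.46). The class differences stayed past the threshold throughout, between 1.16 and 1.79 for MDM2 and between 0.75 and 1.37 for PPM1D, lowest with the panel median, a reference that itself shifts with the panel (the median of all genes was 0.49 higher in the typical DDI treatment).

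Each agent and its solvent were run on 2 occasions per the methods, but no source ties the replicate numbers to them, and same-numbered deviations correlated unevenly (median 0.24, -0.72 to 0.91, above 0.1 in 19 of 29), so the pairing stayed unsettled. With the replicate block, by vehicle set or over all samples, MDM2 relative to PPM1D passed in 8 treatments against 4, MDM2 was higher in 13 or 12 DDI treatments against 11 (cadmium chloride in both, potassium chromate by vehicle set), MDM2 was lower in 1 non-DDI treatment (apicidin) and PPM1D in H2O vehicle was -0.35 (adjusted p = 0.0485, over all samples). Adjusted over the 29 treatments the 4 became 2.

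Counts also moved elsewhere. MDM2 was higher in 13 DDI treatments with HPRT alone and 12 within its own vehicle set, and PPM1D in 11 with GUSB alone and in 11 to 12 when a replicate was left out. MDM2 was higher in 0 non-DDI treatments with GUSB alone, the panel median or the 8 other vehicles, lower in 1 with GUSB alone, within its own vehicle set and in 0 to 1 when a replicate was left out, and lower in 1 DDI treatment against the 8 other vehicles. PPM1D was lower in 1 DDI treatment with the panel median and in 1 non-DDI treatment with GUSB alone, and higher in 0 to 1 non-DDI treatments when a replicate was left out. In H2O vehicle MDM2 was -0.23 with the panel median, and PPM1D was -0.52 with HPRT alone (adjusted p = 0.0117) and -0.67 to -0.023 without an H2O replicate.

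The coupling in DDI treatments was 0.81 without MTX, 0.59 without treatments in H2O, 0.86 with HPRT alone, 0.74 with the panel median, 0.81 with all vehicles, 0.79 with the 8 other vehicles, 0.80 and 0.75 with split references, 0.74 and 0.77 with swapped replicates, 0.77 as rho, 0.74 without the 2 farthest and 0.82 to 0.84 in 1 replicate number. In non-DDI treatments it was -0.16 with the panel median and -0.11 with MDM2 of replicate 2 and PPM1D of replicate 1. The causes were not tested.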
